A study of Homo sapiens with 12 samples.

Results

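UBL5 and 8 other genes of ubiquitin-like proteins (UBL3, UBL4A, SUMO2, SUMO3, NEDD8, UFM1, URM1 and FAU) were followed in 2 human liver cancer lines after knockdown (KD) of UBL5. They were chosen by gene symbol, though with earlier results of these data known. All 9 were listed among the 17640 genes of HepG2 and the 18434 genes of Huh7 and passed the filter on low counts in each line. The question was whether any other ubiquitin-like gene changed along with UBL5. Polyadenylated RNA was sequenced from HepG2 and Huh7, established hepatoma lines, at 52 h by the labels, and each of the 4 groups (Ctrl-siRNA and UBL5 siRNA in each line) had 3 libraries. Ctrl-siRNA is a nontargeting duplex and UBL5 siRNA a commercial duplex against UBL5, so each arm rests on 1 reagent and each line is a single cancer line. The time after transfection is given as somewhat shorter in the study's text, and which applies could not be settled. The labels name no other allele, agent or treatment for any group. Whether these 3 were separate transfections is not stated, so p-values reflect only how much these libraries vary.

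Ubiquitin-like proteins share the compact fold of ubiquitin. Most are joined to other proteins through a glycine at the C terminus by an activating enzyme (E1), a conjugating enzyme (E2) and often a ligase (E3), and proteases remove them again. UBL5 is an exception that binds partner proteins, among them splicing factors, without being conjugated.

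The coding bases around adjacent glycine codons are shown because a pair of glycines ends the joined form of most of these proteins, and because such codons set UBL5 apart from the SUMO genes, NEDD8, URM1 and FAU. UFM1 is conjugated too, through a single glycine. Each line is a stretch of 30 coding bases from the canonical transcript of GENCODE 44 on GRCh38, 5′ to 3′ on the coding strand, with adjacent in-frame GGN codons (glycine) in capitals. For the members without such a pair in the stretch, it is the last 30 coding bases.
UBL5: gatgggatgaacctggagctttattatcaa
UBL3: actggagagagtaattgttgtgtaatcctg
UBL4A: actgagacaatggagaagggcttctccaaa
UFM1: attattcctagagatcgtgttggaagttgt
SUMO2: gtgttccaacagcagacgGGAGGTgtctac
SUMO3: cagcagcagacgGGAGGTgtgccggagagc
NEDD8: gctctgagaGGAGGAGGTGGTcttaggcag
URM1: gtcctcttcatctccactctgcacGGCGGC
FAU: ggccgcatgcttGGAGGTaaagtccatggt
UBL5 (73 codons), UBL3 (117), UBL4A (157) and UFM1 (85) held no adjacent pair of GGN codons anywhere in their coding sequence. SUMO2, SUMO3 and FAU each held 1 such pair, followed by 2, 11 and 59 codons, and in FAU the bases after it encode a ribosomal protein. URM1 held 3 pairs, of which the last, shown here, stood at the very end with 0 codons after it. NEDD8 held 4 pairs, counting those that overlap, the last 3 of them in the run shown, and 3 codons followed the end of that run.

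The libraries held 19469574 to 29744471 counts assigned to genes. HepG2 Ctrl-siRNA replicate 3 stood apart, since 1773 of the listed genes had no count in it, against 159 to 233 in the other HepG2 libraries. The share of mitochondrial counts was 1.91 to 2.35% with Ctrl-siRNA and 2.75 to 3.61% with UBL5 siRNA in HepG2, and 2.46 to 3.30% and 2.66 to 3.72% in Huh7. All 10 hepatocyte markers were listed in both lines, with summed levels of 51278 to 59181 CPM (counts scaled to the size of the library) in HepG2 and 29701 to 31072 CPM in Huh7. Of 5 endothelial markers, 2 were listed in HepG2 and 1 in Huh7, with a sum of at most 6.51 CPM. All 5 fibroblast markers were listed, with a sum of at most 36.2 CPM. Of the leukocyte markers, PTPRC, CD68 and CD3E were not listed, and LYZ made up nearly all of a sum of 968 to 2217 CPM in HepG2 and 324 to 591 CPM in Huh7, lower with UBL5 siRNA in both lines, where LYZ shares 34.7% of its exon bases with another gene. What part the mitochondrial share or these markers have in any result below was not tested. The biological coefficient of variation was 0.189 in HepG2 and 0.0663 in Huh7, which lets the test call smaller changes there. In bulk RNA, fewer cells of a type and less RNA per cell cannot be told apart.

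UBL5, the targeted gene (ENSG00000198258, chr19:9827892-9830115, plus strand of GRCh38, 5 exons in the canonical transcript), was reduced in every library with UBL5 siRNA. Levels are given as CPM scaled by TMM over the 12 libraries. In HepG2, the 3 Ctrl-siRNA libraries had 62.6, 57.7 and 61.8 CPM (1577, 1325 and 1765 counts) and the 3 UBL5-siRNA libraries 7.19, 4.48 and 2.97 CPM (156, 104 and 54 counts). In Huh7, the levels were 67.0, 69.5 and 65.0 CPM with Ctrl-siRNA and 6.20, 6.44 and 5.59 CPM with UBL5 siRNA. The groups were far apart in both lines, and the KD libraries of HepG2 were more uneven among themselves (4.88 ± 2.14 CPM, SD, n = 3) than those of Huh7 (6.08 ± 0.438 CPM, SD, n = 3). Mean CPM was 92.0% lower in HepG2 and 91.0% lower in Huh7. The log2 fold change was −3.63 in HepG2 (standard error (SE) 0.262, adjusted p = 8.36e-05) and −3.44 in Huh7 (SE 0.0747, adjusted p = 2.86e-10, edgeR quasi-likelihood test with Benjamini-Hochberg adjustment over all genes, as for every adjusted p below). Ordered by p-value, UBL5 ranked 56 of 15755 genes in HepG2 and 2 of 16965 in Huh7. Ordered by fold change from the lowest, it ranked 8 in HepG2 and 58 in Huh7.

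The pseudogene UBL5P2, singled out after its counts were seen, fell with UBL5. It had 133, 115 and 117 counts with Ctrl-siRNA and 5, 1 and 3 with UBL5 siRNA in HepG2 (log2 fold change −5.02, SE 0.493, adjusted p = 0.000218, edgeR). In Huh7 it had 154, 131 and 150 counts against 5, 5 and 7 (log2 fold change −4.48, SE 0.246, adjusted p = 2.64e-08, edgeR). Along the canonical UBL5 transcript lie 358 windows of 50 bases, the read length. Of these, 2.79% occurred again elsewhere in the genome, on 1 chromosome, so a small part of the reads could come from either place. Whether those matches lie in UBL5P2 was not checked.

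**Figure D1:**
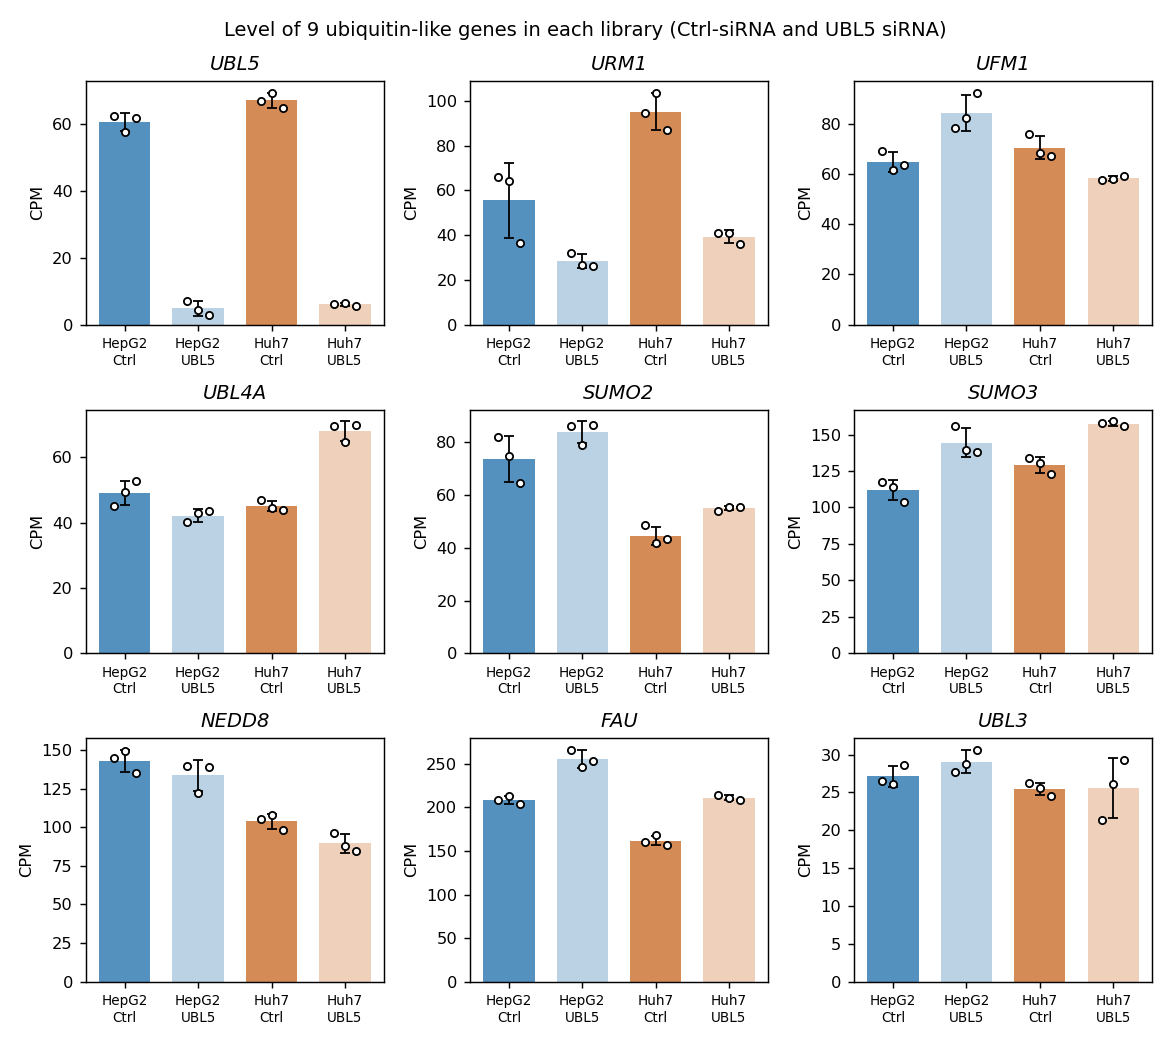
Level of each of the 9 genes in the 12 libraries. Each panel gives CPM on the vertical axis from 0, with a bar for the mean of each group, a whisker for its SD and a point per library; UBL5 lies between 57.7 and 69.5 CPM in all Ctrl-siRNA libraries and between 2.97 and 7.19 CPM in all UBL5-siRNA libraries, while no other gene falls below 21.4 CPM in any library.

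Several other members changed as well, in both directions. The counts of members in this paragraph include UBL5, the target of the siRNA, whose fall the design set in advance. In HepG2, 5 of the 9 members changed at an adjusted p under 0.05 (edgeR), or 55.6%, where 36.7% of the 15755 genes tested did. UBL5 and URM1 were lower, where 20.1% of all genes were, and SUMO3, UFM1 and FAU were higher, where 16.5% of all genes were. Of the 8 members other than UBL5, URM1 alone was thus lower in HepG2. In Huh7, 8 of the 9 changed (88.9%, where 71.3% of the 16965 genes tested did). UBL5, URM1, UFM1 and NEDD8 were lower (36.4% of all genes) and FAU, SUMO2, SUMO3 and UBL4A higher (34.9% of all genes). The median log2 fold change over the members was 0.09 in HepG2 and 0.03 in Huh7, beside 0.01 and −0.01 over all genes. UBL5, URM1, SUMO3 and FAU moved one way in both lines, UFM1 moved opposite ways, UBL4A, SUMO2 and NEDD8 passed the threshold in Huh7 and not in HepG2, and UBL3 passed it in neither. The values of the groups did not overlap for 6 of the 9 members in HepG2, where 52.5% of 15668 genes did not overlap, and for 8 of 9 in Huh7, where 72.6% did not.

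**Figure D2:**
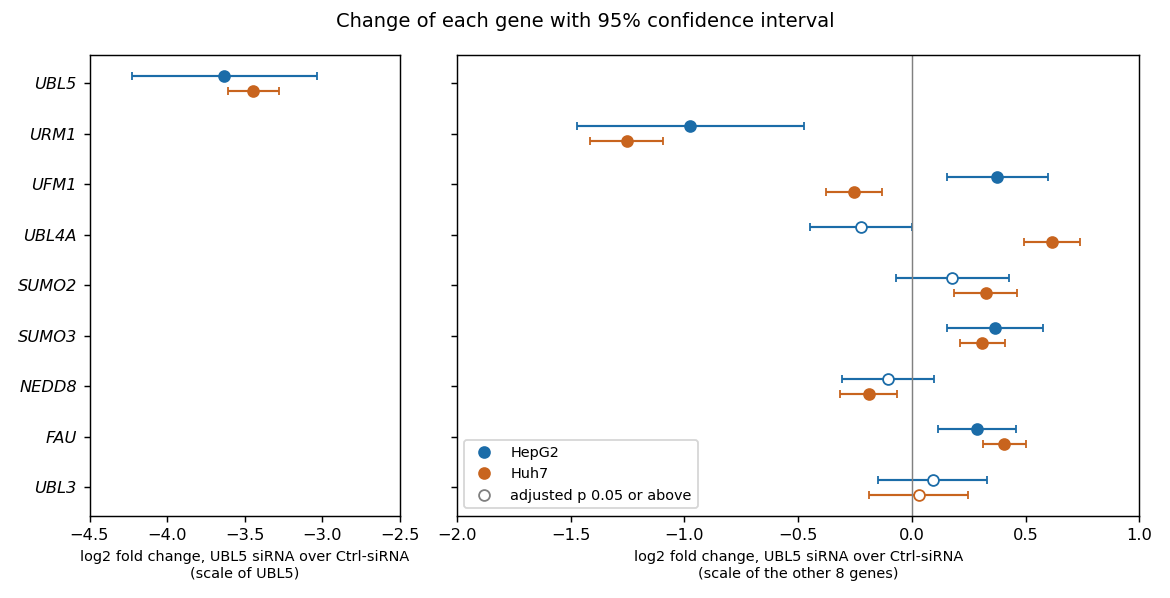
Log2 fold change of each gene (UBL5 siRNA over Ctrl-siRNA, horizontal axis) in HepG2 (blue) and Huh7 (orange), with its 95% confidence interval; filled points passed an adjusted p under 0.05 in edgeR. The left panel holds UBL5 and the right panel, on a scale of its own, the other 8 genes, among which URM1 lies lowest at −0.97 and −1.25 and UFM1 and UBL4A have points on opposite sides of 0.

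URM1 (ENSG00000167118, chr9:128371361-128392016, plus strand) showed the next largest fall of the members after UBL5. The URM1 protein both modifies proteins and carries sulfur for the thiolation of transfer RNAs. In HepG2, URM1 had 66.2, 64.2 and 36.4 CPM with Ctrl-siRNA and 32, 26.8 and 26.4 CPM with UBL5 siRNA. Ctrl-siRNA replicate 3, the library that stood apart, was the low one of its group, and the groups did not overlap. In Huh7, URM1 had 94.8, 104 and 87.1 CPM with Ctrl-siRNA and 41.0, 41.0 and 36.0 CPM with UBL5 siRNA, again without overlap. This gave −0.97 on the log2 scale in HepG2 (SE 0.22, adjusted p = 0.00875, edgeR) and −1.25 in Huh7 (SE 0.0732, adjusted p = 4.09e-08, edgeR). Without Ctrl-siRNA replicate 3, the value in HepG2 was −1.21 (adjusted p = 0.000107, edgeR). A change at least as large was common, with 17.5% of genes in HepG2 and 15.5% in Huh7 beyond that of URM1.

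Of 5 genes that act with URM1, 0 changed in HepG2 and 1 rose in Huh7 (edgeR), with median log2 fold changes of 0.12 and 0.16, or 0% and 20% of the list beside 36.7% and 71.3% of all genes. The HepG2 count was 0 at an unadjusted p under 0.05 and by DESeq2 as well. MOCS3, the E1-like enzyme that activates URM1, had 22.9 ± 2.01 and 16.5 ± 6.08 CPM in HepG2 (SD, n = 3), which is −0.47 on the log2 scale (adjusted p = 0.164, edgeR), and 21.4 ± 0.91 and 21.6 ± 1.02 CPM in Huh7 (log2 fold change 0.04, adjusted p = 0.682). With replicates paired by number, MOCS3 passed the threshold in HepG2 (log2 fold change −0.53, adjusted p = 0.0432, edgeR), which made the count there 1 of 5. CTU1, a subunit of the enzyme that thiolates transfer RNAs, rose in Huh7 from 5.28 ± 1.55 to 9.52 ± 2.82 CPM (log2 fold change 0.89, SE 0.228, adjusted p = 0.00417, edgeR) and had 0.60 (adjusted p = 0.19) in HepG2. Its partner subunit CTU2 had log2 fold changes of 0.12 and 0.16, and MPST, a sulfurtransferase, −0.10 and 0.20, none of which passed the threshold.

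UFM1 (ENSG00000120686, chr13:38349849-38363619, plus strand), the modifier of ribosomes at the endoplasmic reticulum, moved in opposite directions in the 2 lines. In HepG2 it had 69.1, 61.7 and 63.5 CPM with Ctrl-siRNA and 78.4, 82.3 and 92.3 CPM with UBL5 siRNA. In Huh7 it had 75.7, 68.4 and 67.2 CPM with Ctrl-siRNA and 57.6, 57.8 and 59.1 CPM with UBL5 siRNA. Every KD library of HepG2 lay above its controls and every KD library of Huh7 below them. The log2 fold change was 0.37 in HepG2 (SE 0.0978, adjusted p = 0.0166, edgeR) and −0.25 in Huh7 (SE 0.0563, adjusted p = 0.00164, edgeR). The call in HepG2 was lost without Ctrl-siRNA replicate 2 (adjusted p = 0.0705, edgeR). UFM1 shares 5.29% of its exon bases with LINC00571 on the opposite strand. Of its 50-base windows, 4.71% occur again elsewhere in the genome, spread over 24 chromosomes.

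UBL4A (ENSG00000102178, chrX:154483717-154486615, minus strand), a subunit of the BAG6 complex that hands tail-anchored membrane proteins to their insertion pathway, rose in Huh7. There it had 47.0, 44.5 and 44 CPM with Ctrl-siRNA and 69.8, 64.7 and 70.0 CPM with UBL5 siRNA, a log2 fold change of 0.61 (SE 0.0564, adjusted p = 1.6e-06, edgeR). In HepG2 it had 45.2, 49.3 and 52.7 CPM with Ctrl-siRNA and 40.1, 42.9 and 43.7 CPM with UBL5 siRNA. The HepG2 groups did not overlap, with the KD libraries lower, but the log2 fold change of −0.22 did not pass the threshold (SE 0.0988, 95% confidence interval −0.45 to 0.00115, adjusted p = 0.11, edgeR).

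An interaction test over the 12 libraries compared the responses of the lines, and 21.5% of 15668 genes passed. UBL4A and UFM1 passed, as 2 of the 9 members. For UBL4A the change in Huh7 minus that in HepG2 was 0.81 on the log2 scale (SE 0.109, adjusted p = 0.000275, edgeR). For UFM1 it was −0.66 (SE 0.112, adjusted p = 0.00125, edgeR). The same difference was 0.16 for UBL5 (adjusted p = 0.735) and −0.31 for URM1 (adjusted p = 0.42), and neither passed. Without HepG2 Ctrl-siRNA replicate 3, the difference for URM1 was −0.08. SUMO2 (0.12, adjusted p = 0.561) and NEDD8 (−0.11, adjusted p = 0.491), called in Huh7 alone, did not pass this test either. Among list genes named as called in Huh7 alone, CTU1, UFSP1, GET1, GET4, BAG6, UBE2M, DCUN1D3, RPS27A and CLK4 did not pass it. UBA2, UBB and GABARAPL2 did.

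Genes of the enzymes that attach and remove UFM1, and of their cofactors, moved in both directions. Of 8, 1 was higher and 2 lower in HepG2 (median log2 fold change 0.08), and 2 were higher and 2 lower in Huh7 (median −0.04, edgeR). That is 37.5% of the list in HepG2 and 50% in Huh7, beside 36.7% and 71.3% of all genes. UFL1, the E3 ligase for UFM1, fell by 0.80 on the log2 scale in HepG2 (SE 0.124, adjusted p = 0.00144) and by 0.93 in Huh7 (SE 0.0526, adjusted p = 3.11e-08). DDRGK1, the membrane partner of UFL1, rose by 0.44 (SE 0.0926, adjusted p = 0.00647) and 0.86 (SE 0.0923, adjusted p = 5.67e-06). UFC1, the E2, had −0.06 and −0.03, neither past the threshold. UFSP1, a UFM1 protease gene with under 3 CPM in every group mean, rose in Huh7 (1.42, SE 0.307, adjusted p = 0.00138), a call lost in 1 fit over the 12 libraries (1.36, adjusted p = 0.119, edgeR). In the test of the difference between the lines, 0 of the 8 passed in edgeR, with the smallest adjusted p at 0.0546 for DDRGK1, while 2 had an unadjusted p under 0.05 and 1 passed in DESeq2.

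Among partners of UBL4A, SGTA and CAMLG rose in both lines. SGTA, the cochaperone that binds UBL4A, went from 82.4 ± 8.88 to 230.3 ± 37.1 CPM in HepG2 (log2 fold change 1.48, SE 0.142, adjusted p = 0.000203, edgeR) and from 37.8 ± 0.847 to 135 ± 1.98 CPM in Huh7 (1.86, SE 0.0482, adjusted p = 4.11e-10, edgeR). CAMLG, a subunit of the receptor that inserts tail-anchored proteins, rose by 1.15 (adjusted p = 0.00038) and 1.01 (adjusted p = 6.83e-06). Its partner GET1, which shares 22.9% of its exon bases with other genes, fell in Huh7 (−0.51, adjusted p = 0.000884) and had −0.43 (adjusted p = 0.0775) in HepG2. BAG6, the scaffold of the complex, rose in Huh7 (0.23, adjusted p = 0.000422) and had 0.22 in HepG2 (adjusted p = 0.0634, and adjusted p = 0.019 with replicates paired by number). Of the 6 genes, 2 were higher and 0 lower in HepG2 (median 0.35), and 4 were higher and 1 lower in Huh7 (median 0.62), which is 33.3% and 83.3% beside 36.7% and 71.3% of all genes. At an unadjusted p under 0.05, 1 was lower in HepG2, and 0 by DESeq2. The 4 higher in Huh7 include GET4, at only 1.26 ± 0.491 and 2.71 ± 1.09 CPM there. GET4 shares 80.8% of its exon bases with other genes.

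SUMO2 and SUMO3, close relatives that cells attach to nuclear proteins as single units and chains, both had higher mean levels with UBL5 siRNA in each line. SUMO3 (ENSG00000184900, chr21:44805617-44818779, minus strand) had 118, 114 and 104 CPM with Ctrl-siRNA and 156, 139 and 138 CPM with UBL5 siRNA in HepG2. In Huh7 it had 134, 130.3 and 123 CPM and then 158, 159 and 156 CPM, and in both lines each KD library lay above every control. The log2 fold change of SUMO3 was 0.36 in HepG2 (SE 0.0929, adjusted p = 0.0151, edgeR) and 0.31 in Huh7 (SE 0.045, adjusted p = 7.26e-05, edgeR). Without UBL5-siRNA replicate 1, the HepG2 call was just lost (adjusted p = 0.0503, edgeR).

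SUMO2 (ENSG00000188612, chr17:75165586-75182959, minus strand) had 82.2, 74.7 and 64.7 CPM with Ctrl-siRNA and 86.2, 79.1 and 86.5 CPM with UBL5 siRNA in HepG2, where the groups overlapped. In Huh7 it had 48.6, 42.0 and 43.4 CPM and then 54.1, 55.5 and 55.7 CPM, without overlap. On the log2 scale SUMO2 had 0.18 in HepG2 (SE 0.11, adjusted p = 0.243, edgeR) and 0.32 in Huh7 (SE 0.0632, adjusted p = 0.00067, edgeR). Together SUMO2 and SUMO3 went from 186 ± 15.7 to 228 ± 12.3 CPM in HepG2 and from 174 ± 8.21 to 213 ± 1.75 CPM in Huh7 (SD, n = 3). Per exon base, the ratio of SUMO2 to SUMO3 was 0.570, 0.535 and 0.507 with Ctrl-siRNA and 0.451, 0.463 and 0.510 with UBL5 siRNA in HepG2 (log2 difference −0.18, exact permutation test, two-sided p = 0.2). In Huh7 the ratio was 0.296, 0.263 and 0.288 and then 0.280, 0.284 and 0.292 (log2 difference 0.02, exact permutation test, two-sided p = 0.9), and 3 libraries against 3 allow no p below 0.1. SUMO3 thus exceeded SUMO2 per length in all 12 libraries, by a wider margin in Huh7. Of the 50-base windows of SUMO2, 27.4% occur again elsewhere in the genome, spread over 24 chromosomes, the highest share of the 9 members, whereas 0 of those of SUMO3 do.

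Genes of the SUMO enzymes moved in both directions. Of 15, 1 was higher and 4 lower in HepG2 (median log2 fold change −0.07, against 0.01 for all genes), and 8 were higher and 5 lower in Huh7 (median 0.22, against −0.01, edgeR). These are 33.3% and 86.7% of the list, beside 36.7% and 71.3% of all genes. UBA2, the catalytic subunit of the SUMO E1, went from 230 ± 6.43 to 333 ± 4.03 CPM in Huh7 (log2 fold change 0.56, SE 0.0412, adjusted p = 2.7e-07, edgeR) and had 0.07 (adjusted p = 0.549) in HepG2. The difference between the lines passed the interaction test for UBA2 (0.46, adjusted p = 0.00411, edgeR). RANBP2, a nuclear pore SUMO ligase, rose in both lines (0.44, adjusted p = 0.00189, and 0.50, adjusted p = 1.8e-06), and the SUMO protease SENP2 fell in both (−0.75, adjusted p = 0.000774, and −0.56, adjusted p = 3.53e-06).

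NEDD8 (ENSG00000129559, chr14:24216857-24232367, minus strand), the modifier that activates cullin ubiquitin ligases, fell slightly in Huh7. It had 105, 108 and 98.3 CPM with Ctrl-siRNA and 96.1, 87.9 and 84.5 CPM with UBL5 siRNA there, a log2 fold change of −0.19 (SE 0.0578, adjusted p = 0.0111, edgeR). In HepG2 it had 145, 149 and 135 CPM and then 139.6, 122 and 139 CPM, with overlapping groups and a log2 fold change of −0.11 (SE 0.0887, adjusted p = 0.391, edgeR). The Huh7 call was lost without UBL5-siRNA replicate 2 (adjusted p = 0.0675) or replicate 3 (adjusted p = 0.0604). NEDD8 shares 12.9% of its exon bases with the readthrough gene NEDD8-MDP1, and 15.5% of its 50-base windows occur again elsewhere, on 1 chromosome.

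Of 16 genes of the NEDD8 cycle, 5 were higher and 5 lower in HepG2 (median −0.07), and 7 were higher and 1 lower in Huh7 (median 0.15, edgeR). The share that changed was 62.5% in HepG2 (36.7% of all genes) and 50% in Huh7 (71.3% of all genes). CAND1, which exchanges the substrate receptors of cullin ligases, rose from 139 ± 7.38 to 235 ± 6.37 CPM in HepG2 (log2 fold change 0.75, SE 0.0774, adjusted p = 0.00025, edgeR) and from 183 ± 8.26 to 337 ± 6.06 CPM in Huh7 (0.90, SE 0.046, adjusted p = 1.58e-08, edgeR). DCUN1D1, a ligase for NEDD8, rose in both lines as well (0.62, adjusted p = 0.00241, and 0.88, adjusted p = 1.61e-06). The E2 gene UBE2M rose in Huh7 (0.35, adjusted p = 0.000135, a call lost at adjusted p = 0.0986 in 1 fit over the 12 libraries) and had 0.47 (adjusted p = 0.104) in HepG2, and DCUN1D3 had 0.44 (adjusted p = 4.5e-05) and 0.22 (adjusted p = 0.247) in these lines. NAE1 and UBA3, the subunits of the NEDD8 E1, were singled out after their values were seen. NAE1 fell in HepG2 from 214 ± 14.5 to 138 ± 16.3 CPM (log2 fold change −0.64, SE 0.104, adjusted p = 0.00186, edgeR) and had −0.10 (adjusted p = 0.102) in Huh7. UBA3 fell in HepG2 from 58.0 ± 4.67 to 41.1 ± 2.87 CPM (−0.50, SE 0.102, adjusted p = 0.00526, edgeR) and had −0.12 (adjusted p = 0.103) in Huh7. The difference between the lines passed for NAE1 (0.51, adjusted p = 0.0068) and UBA3 (0.36, adjusted p = 0.0475).

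**Figure D3:**
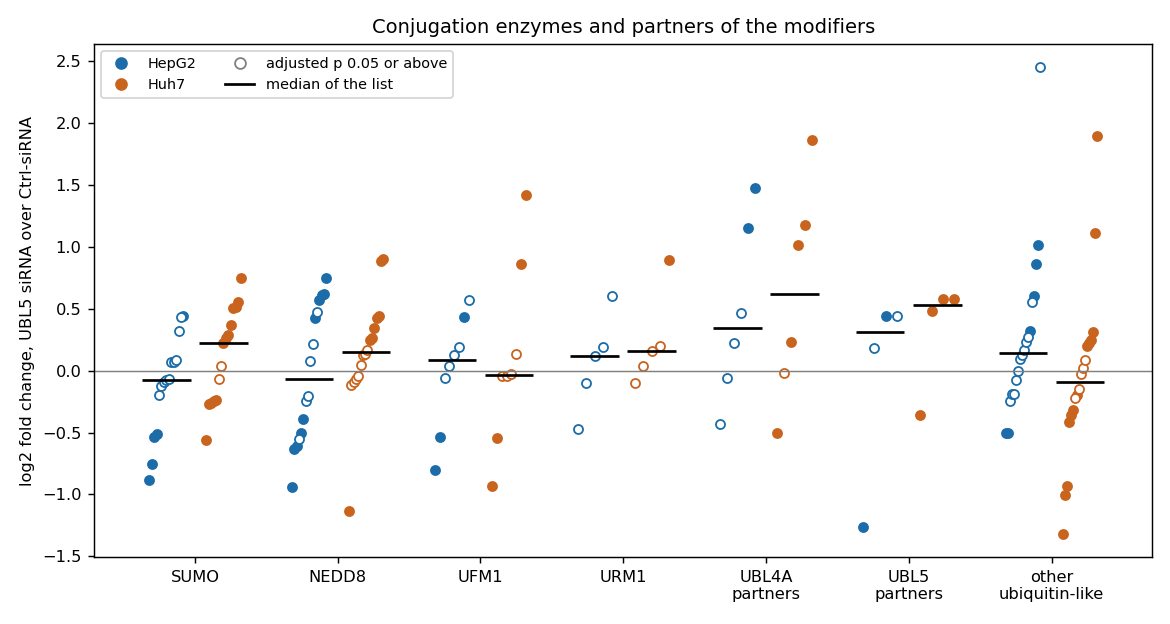
Log2 fold change (UBL5 siRNA over Ctrl-siRNA, vertical axis) of each tested gene that acts with a modifier or belongs to the wider family, in HepG2 (blue) and Huh7 (orange), with filled points for an adjusted p under 0.05 in edgeR and black lines for the median of each list. The lists scatter on both sides of 0, and the highest median is that of the UBL4A partners in Huh7 at 0.62.

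FAU (ENSG00000149806, chr11:65120630-65122177, minus strand) encodes a ubiquitin-like protein fused to a protein of the small ribosomal subunit, and it rose in both lines. In HepG2 it had 209, 213 and 203 CPM with Ctrl-siRNA and 266, 246 and 254 CPM with UBL5 siRNA. In Huh7 it had 160.4, 168 and 157 CPM and then 214, 211 and 209 CPM, and the groups did not overlap in either line. FAU thus had a log2 fold change of 0.29 in HepG2 (SE 0.0748, adjusted p = 0.0166, edgeR) and 0.41 in Huh7 (SE 0.0434, adjusted p = 5.53e-06, edgeR). Without Ctrl-siRNA replicate 1, the HepG2 call was just lost (adjusted p = 0.0503, edgeR). FAU shares 8.40% of its exon bases with SYVN1 and 20.6% of its 50-base windows with another place on 1 chromosome, and the pseudogene FAUP1 rose by 0.42 (HepG2, adjusted p = 0.0091) and 0.45 on the log2 scale (Huh7, adjusted p = 4.83e-05).

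UBL3 (ENSG00000122042, chr13:29764371-29850617, minus strand), a membrane-anchored protein linked to the sorting of cargo into vesicles, was the member whose change passed in neither line. It had 26.6, 26.1 and 28.7 CPM with Ctrl-siRNA and 27.7, 28.8 and 30.7 CPM with UBL5 siRNA in HepG2. In Huh7 it had 26.2, 25.6 and 24.5 CPM and then 21.4, 26.1 and 29.3 CPM, with the KD libraries spread on both sides of the controls. UBL3 had a log2 fold change of 0.09 in HepG2 (95% confidence interval −0.15 to 0.33, adjusted p = 0.536, edgeR) and 0.03 in Huh7 (95% confidence interval −0.19 to 0.25, adjusted p = 0.801, edgeR).

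UBB, which encodes a chain of ubiquitin units, and RPS27A, which encodes ubiquitin fused to a ribosomal protein much as FAU is built, belong to a list of other ubiquitin-like genes and were singled out after their values were seen. In Huh7, UBB fell from 283 ± 15.6 to 223 ± 19.1 CPM (log2 fold change −0.32, adjusted p = 0.000725, edgeR) and RPS27A rose from 122 ± 6.75 to 142 ± 1.1 CPM (0.25, adjusted p = 0.000599, edgeR). In HepG2, UBB had 0.09 (adjusted p = 0.587) and RPS27A 0.27 (adjusted p = 0.074, and adjusted p = 0.015 with replicates paired by number). UBB shares 29.4% of its exon bases with another gene.

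Of the 23 genes on that list, 18 were tested in each line. In HepG2, 4 were higher and 2 lower (median 0.15), and in Huh7, 6 were higher and 7 lower (median −0.09, edgeR), shares of 33.3% and 72.2% beside 36.7% and 71.3% of all genes. UBL7, a proteasome-linked ubiquitin-like protein, rose in both lines, from 35.1 ± 4.44 to 71.2 ± 3.79 CPM in HepG2 (log2 fold change 1.01, SE 0.12, adjusted p = 0.000431) and from 45.8 ± 1.87 to 97.8 ± 7.17 CPM in Huh7 (1.12, SE 0.0627, adjusted p = 3.1e-08). TMUB2, which has a ubiquitin-like domain and a membrane anchor, fell in both (−0.50, adjusted p = 0.00348, and −1.01, adjusted p = 6.12e-08). GABARAPL1, an autophagy protein that is attached to membrane lipid, moved in opposite directions. It rose in HepG2 from 14.1 ± 3.22 to 25.9 ± 4.47 CPM (0.86, SE 0.188, adjusted p = 0.00733, edgeR) and fell in Huh7 from 58.2 ± 1.72 to 23 ± 2.18 CPM (−1.32, SE 0.0747, adjusted p = 3.25e-08, edgeR), a difference of −2.21 (adjusted p = 3.15e-05). Its relative GABARAPL2 fell in Huh7 (−0.93, adjusted p = 1.91e-06) and had −0.19 (adjusted p = 0.221) in HepG2.

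Proteins that bind UBL5 made up the shortest list, and its members were written down with earlier results known. Of 4, 1 was higher and 1 lower in HepG2 (median 0.31), and 3 were higher and 1 lower in Huh7 (median 0.53, edgeR), or 50% and 100% of so short a list beside 36.7% and 71.3% of all genes. COIL, the Cajal body scaffold coilin, rose in both lines (0.44, adjusted p = 0.00904, and 0.48, adjusted p = 8.36e-06). FANCI, of the Fanconi anemia pathway, fell in both, from 107 to 44.9 CPM in HepG2 and from 197 to 152 CPM in Huh7 (log2 fold changes −1.26, adjusted p = 0.000336, and −0.36, adjusted p = 0.000102), and the difference of 0.87 passed the test between the lines (adjusted p = 0.00148, edgeR). CLK4, a kinase of splicing factors, had 0.44 in HepG2 (adjusted p = 0.132, and adjusted p = 0.0178 with replicates paired by number) and 0.58 in Huh7 (adjusted p = 0.0011).

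Before KD, the 2 lines differed in 5 of the 9 members (edgeR on the Ctrl-siRNA groups), where 63.7% of 15668 genes differed. Relative to HepG2, Huh7 had more URM1 (log2 difference 0.78, adjusted p = 0.00133) and SUMO3 (0.21, adjusted p = 0.0174) and less SUMO2 (−0.72, adjusted p = 7.68e-06), NEDD8 (−0.46, adjusted p = 9.46e-05) and FAU (−0.37, adjusted p = 5.32e-05). Without HepG2 Ctrl-siRNA replicate 3, the difference for URM1 was 0.55 (adjusted p = 0.000217) and SUMO3 no longer passed (adjusted p = 0.0645). UBL5 differed by 0.15 (95% confidence interval −0.21 to 0.50, adjusted p = 0.463), and UBL3, UBL4A and UFM1 did not pass either, with −0.09, −0.12 and 0.12.

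Levels of different genes can be compared only per length. Over all annotated exon bases, FAU was the highest member in every group, with 135 ± 3.23 CPM per kilobase in HepG2 and 105 ± 3.63 in Huh7 with Ctrl-siRNA, and SUMO3 was next with 40.9 ± 2.56 and 47.2 ± 2.07. In HepG2 controls UBL5 (31.4 ± 1.36 CPM per kilobase) followed NEDD8 (37.8 ± 1.9), and in Huh7 controls (34.8 ± 1.16) it came directly after SUMO3. With UBL5 siRNA it came last in both lines, at 2.53 ± 1.11 and 3.15 ± 0.227. In HepG2 controls the order went on with SUMO2, UBL4A, UFM1, URM1 and UBL3, and the neighbours SUMO3 and NEDD8, SUMO2 and UBL4A, and UFM1 and URM1 overlapped in their values. In Huh7 controls it went on with NEDD8, URM1, UBL4A, UFM1, SUMO2 and UBL3, and UBL4A and UFM1 overlapped. With UBL5 siRNA the order in HepG2 was FAU, SUMO3, NEDD8, SUMO2, UFM1, UBL4A, UBL3, URM1 and UBL5, with overlap between UBL3 and URM1. In Huh7 it was FAU, SUMO3, UBL4A, NEDD8, SUMO2, UFM1, URM1, UBL3 and UBL5, with overlap between UBL4A and NEDD8. The length used matters for the short genes. The canonical transcript of UBL5 has 407 bases, against 1931 annotated exon bases, and by canonical length the controls of both lines ran FAU, NEDD8, UBL5, SUMO3, with UBL3 last in all 4 groups and UBL5 above it after KD.

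**Figure D4:**
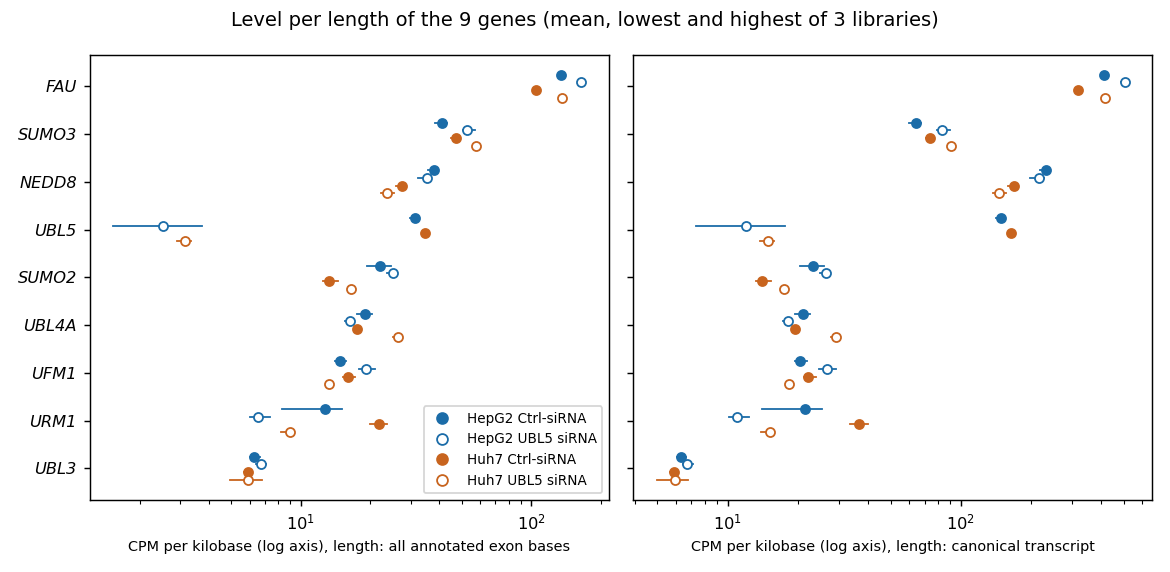
CPM per kilobase of the 9 genes on a log axis, by all annotated exon bases (left) and by the canonical transcript (right), with filled points for Ctrl-siRNA and open points for UBL5 siRNA; lines run from the lowest to the highest of 3 libraries. FAU is highest on both scales, and UBL5 drops from 31.4 to 2.53 in HepG2 and from 34.8 to 3.15 in Huh7 by exon bases.

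Summed over the 8 members other than UBL5, expression went from 734 ± 39.6 to 801 ± 30.2 CPM in HepG2 and from 676 ± 26.8 to 705 ± 6.42 CPM in Huh7 (SD, n = 3). These sums are led by FAU, NEDD8 and SUMO3, and no test was run on them.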

How the data were processed

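The data are 12 RNA-seq libraries, 3 for each of Ctrl-siRNA and UBL5 siRNA in either line. Per the study's methods and processing notes, bcl2fastq produced the reads, FastQC 0.11.9 served for quality control, STAR 2.7.6a for alignment to GRCh38 and featureCounts for counting by gene. The strand setting of the counting is not given in the sources used here, so reads of overlapping genes on opposite strands may not be separated. The deposited values used are raw read counts per gene, with 19469574 to 29744471 per library, and intervals cover the spread between libraries. The deposited columns of the authors' DESeq2 1.30.0 comparison (mean, log2 fold change, its error, statistic, p-value and adjusted p-value) were not used. All count columns were matched to samples and 0 were left over.

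Counts were analysed with edgeR 4.0.16 and limma 3.58.1 in R 4.3.3 and with Python 3.11.15. Genes were kept by filterByExpr (minimum count 10, minimum total count 15), scaled by TMM and tested by the quasi-likelihood F test, 3 libraries against 3 within each line, with Benjamini-Hochberg adjustment over all genes tested and a threshold of 0.05. The difference between the lines was the interaction in a fit over all 12 libraries, and the Ctrl-siRNA groups were compared in the same fit. CPM are scaled by TMM over the 12 libraries. Symbols, exons, transcripts and coordinates (counted from 1) are from GENCODE 44, which held 17603 of 17640 identifiers of HepG2 and 18398 of 18434 of Huh7 (99.8% of each). Canonical transcripts were cut into 50-base windows and searched for exact matches on both strands of GRCh38. The protein sequences and the siRNA sequence were not used here.

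The members, the gene lists and the tests were chosen with earlier results of these data known. Named are all 9 members, from each list up to 4 genes whose adjusted p was smallest in either line (any gene of a list of at most 8), the 5 genes whose log2 CPM correlated best with that of UBL5 over the 12 libraries among genes with a mean of at least 10 CPM, and genes given as singled out after their values were seen. Some genes that this rule names, and that enter the counts of the lists, are not reported here. The test was tried on simulated counts with known changes. No library duplicated another. Libraries of 1 replicate number were checked for pairing by the correlation of their deviations from the group means. In HepG2 it was 0.41, 0.32 and 0.34 over genes with a mean of at least 10 CPM (0.12, 0.11 and 0.07 over all genes kept). In Huh7 it was 0.44, 0.06 and 0.57 (0.16, 0.02 and 0.21 over all genes kept). With a threshold of 0.1 on the genes of at least 10 CPM, the numbers were taken to pair in HepG2 and not in Huh7. Over all genes kept, the lowest value was under 0.1 in both lines, so the choice rests on those genes. Paired values are given for HepG2 where they change a call. Alternatives were RLE scaling, no filter, DESeq2 1.42.0, the replicate block, a minimum fold of 1.2 (glmTreat), 1 fit over 12 libraries, canonical transcript length, each library left out in turn and, chosen after seeing the data, scaling by total counts.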

Additional observations from a re-analysis of the deposited data

Results flagged for a closer look

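The change of UBL4A differed between the lines in the interaction test, at 0.81 on the log2 scale for Huh7 minus HepG2 (adjusted p = 0.000275, edgeR), with 3 of 3 KD libraries above the controls in Huh7 and 3 of 3 below them in HepG2. The change of UFM1 differed in the other direction, at −0.66 (adjusted p = 0.00125, edgeR), with 3 of 3 KD libraries below the controls in Huh7 and 3 of 3 above them in HepG2. Both passed under every alternative run, with ranges of 0.76 to 0.86 for UBL4A and −0.71 to −0.59 for UFM1, and 21.5% of all genes tested passed the same test.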

How the results depend on the processing

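The number of members changed stayed at 5 in HepG2 and 8 in Huh7 under RLE scaling, no filter, DESeq2, total counts and the replicate block, which pairs libraries by number and changed no call on a member. A minimum fold of 1.2 left 2 of 9 members in HepG2 (UBL5 and URM1) and 4 of 9 in Huh7 (UBL5, UBL4A, URM1 and FAU). Over all genes it left 3784 of 15755 in HepG2 and 9177 of 16965 in Huh7. One fit over 12 libraries gave 6 members in HepG2, adding UBL4A (adjusted p = 0.0314, edgeR). That fit moved the count over all genes from 5780 to 7733 in HepG2 and from 12098 to 8530 in Huh7. With each library left out in turn, 4 to 5 members changed in HepG2 and 7 to 8 in Huh7, 2 differed between the lines throughout, and 4 to 5 between the controls. Over all genes, the count in HepG2 ran from 3819 (without UBL5-siRNA replicate 2) to 7270 (without Ctrl-siRNA replicate 3), and in Huh7 from 11445 to 12039. The replicate block gave 6431 genes in HepG2 and 12672 in Huh7, where it also made CTU2 and MPST pass (3 of 5 URM1 partners). Scaling by total counts, chosen after seeing the data, moved the median of all genes between the controls from 0.02 to 0.14, and there UFM1 passed (0.24, adjusted p = 0.0154). In Huh7 it moved the median log2 fold change of all genes from −0.01 to −0.09. There NAE1 (−0.18, adjusted p = 0.00765, edgeR) and UBA3 (−0.20, adjusted p = 0.0137, edgeR) passed as well. Between the controls, SUMO3 also lost its call without Huh7 Ctrl-siRNA replicate 1 (adjusted p = 0.0901) or 2 (adjusted p = 0.0659). Among the partner genes, a single left-out library made pass in HepG2 BAG6, GET1 and UBE2M (Ctrl-siRNA replicate 2, adjusted p = 0.0458, 0.0277 and 0.0424), CLK4, DCUN1D3 and RPS27A (Ctrl-siRNA replicate 3, adjusted p = 0.0149, 0.0431 and 0.0461) and MOCS3 (UBL5-siRNA replicate 1, adjusted p = 0.0251), and in Huh7 CTU2 and MPST (Ctrl-siRNA replicate 3, adjusted p = 0.0305 and 0.00179). Some of these also passed in HepG2 with all libraries kept. BAG6 passed under RLE scaling and no filter (adjusted p = 0.0407 and 0.0499, edgeR). DESeq2 made BAG6, UBE2M and RPS27A pass (adjusted p = 0.0124, 0.0427 and 0.03). One fit over 12 libraries made BAG6, UBE2M, RPS27A and GET1 pass (adjusted p = 0.00804, 0.0222, 0.0179 and 0.0325, edgeR).

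Some small log2 values changed sign. Under total counts these were UBL3 (−0.052) and MOCS3 (−0.046) in Huh7, and UBL3 (0.029) and UBL4A (0.00218) between the controls. With each library left out in turn, UBL3 in Huh7 ran from −0.069 to 0.15 and MOCS3 from −0.00159 to 0.085. In HepG2, CTU2 ran from −0.00142 to 0.31, MPST from −0.16 to 0.00716 and UFSP1 from −0.015 to 1.57. The difference between the lines ran from −0.20 to 0.020 for UBL3 and from −0.083 to 0.54 for UBL5, and the log2 difference of the SUMO2 to SUMO3 ratio in Huh7 from −0.032 (without Ctrl-siRNA replicate 2) to 0.053. None of these had passed a test, and the cause was not tested. Counting depth is low for UFSP1, GET4, CTU1 and, after KD, UBL5P2.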

Other observations

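The level of 9720 genes with a mean of at least 10 CPM was compared with that of UBL5 over the 12 libraries, which share the siRNA contrast, so the correlations are given only as a description. The 5 genes closest to UBL5 were PTPN18 (Pearson r of log2 CPM 0.998), JAGN1 (0.990), SNX14 (0.990), TCF19 (0.989) and KNTC1 (0.989). PTPN18, a tyrosine phosphatase gene, had 45.9 CPM with Ctrl-siRNA and 11.9 CPM with UBL5 siRNA in HepG2 and 50.3 and 12.6 CPM in Huh7 (group means), log2 fold changes of −1.95 and −1.97. TCF19 had −2.29 and −2.31, KNTC1, of the kinetochore, −1.72 and −1.86, the sorting nexin gene SNX14 −1.42 and −1.46, and JAGN1, of the endoplasmic reticulum, −0.68 and −0.51. URM1 was the closest of the other members, at rank 748 (r = 0.84), followed by NEDD8 at rank 3591 (r = 0.20). The rest had negative values, from −0.22 for UFM1 to −0.77 for SUMO3.

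Among pseudogenes that resemble the members, SUMO2P1 rose in Huh7 (log2 fold change 0.40, adjusted p = 0.0155, edgeR), a call lost in 1 fit over 12 libraries (adjusted p = 0.0525), under a minimum fold of 1.2 (adjusted p = 0.0988), without Ctrl-siRNA replicate 1 (adjusted p = 0.0533) and without UBL5-siRNA replicate 3 (log2 fold change 0.27, adjusted p = 0.0693). It had 0.15 (adjusted p = 0.491) in HepG2. SUMO2P21 did not pass in HepG2 (−0.12, adjusted p = 0.708, edgeR) or Huh7 (0.13, adjusted p = 0.278, edgeR). SUMO2P6 had 0.23 in HepG2 (adjusted p = 0.801, edgeR) and was not tested in Huh7. NEDD8P1 had log2 fold changes of −0.11 and −0.18 in HepG2 and Huh7 (adjusted p = 0.739 and 0.312).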
